A study of Mus musculus with 15 samples.

Results

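Expression of the interferon-gamma-induced GTPases was examined in mouse lung after 6 h of mechanical ventilation with or without hydrogen sulfide (H2S). The 10 genes considered were the guanylate-binding proteins Gbp2, Gbp3, Gbp4, Gbp6, Gbp7 and Gbp9 and the immunity-related GTPases Igtp, Irgm1, Irgm2 and Iigp1. A gene was measured through an array row (a transcript cluster of probes) whose only annotated symbol was that gene, and 6 of the 10 genes had such a row, among 19934 genes with a row of their own and 28361 rows in all. These were Gbp3, Gbp4, Gbp7, Gbp9, Irgm1 and Iigp1, with 1 row each. Gbp2, Gbp6, Igtp and Irgm2 were measured only through 3 rows that name several genes, and those rows were kept apart from the 6.

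Interferon-gamma is secreted mainly by natural killer and T cells and acts through its receptor and the kinases Jak1 and Jak2 on genes with GAS elements in their promoters. The guanylate-binding proteins and the immunity-related GTPases are among the genes that it induces most strongly in macrophages, endothelium and epithelium. They assemble on the vacuoles of intracellular pathogens, damage them and expose their content to inflammasomes, while Irgm1, Irgm2 and Igtp act as regulators that keep the other immunity-related GTPases off the membranes of the host. Many of these genes also respond to type I interferons, through ISRE elements.

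Male mice of the inbred strain C57BL/6N were used, and RNA of the lower right lobe of the lung was put on 1 Affymetrix whole-transcript array for each of 15 mice. All mice were anaesthetised with ketamine and acepromazine and carried an arterial line and a tracheal tube, and the lungs had been lavaged for cell counts at the end. H2S-ventilated mice (n = 5) were given 80 ppm H2S in synthetic air over 6 h, with breaths of 12 ml/kg and 2 cmH2O of positive end-expiratory pressure, air-ventilated mice (n = 5) received synthetic air at the same settings, and control mice (n = 5) breathed synthetic air spontaneously for 6 h. Controls differed from the air-ventilated mice in ventilation only, whereas H2S-ventilated mice differed from controls in ventilation and in gas, and mice breathing H2S spontaneously were not analysed here.

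The values are normalised intensities on a linear scale, and their number limits the precision. Array medians lay between 179 and 187, and arrays of a group correlated at 0.984 to 0.994 across rows, which are not independent replicates. Each mouse is named by its label, whose second part is a running number. In each group 3 mice have numbers up to 12 and 2 mice have numbers from 20 to 28, and the labels do not say what the numbers stand for. Whole lobes were measured, so fewer cells of a type and less RNA per cell cannot be told apart.

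The genes lie in families of neighbours. In the mouse assembly GRCm38.p6, Gbp7, Gbp3 and Gbp2 are next to Gbp5 and Gbp2b on chromosome 3, Gbp9, Gbp4 and Gbp6 are next to Gbp8, Gbp10 and Gbp11 on chromosome 5, and Irgm1, Igtp and Irgm2 are on chromosome 11. Related members are similar in sequence, so rows of single genes may also take up RNA of a relative. The study's own annotation gave the row called Gbp7 here the symbol Gbp6. The number of that row, 10496569, lies between those of Gbp2b (10496555) and Gbp3 (10496580) of chromosome 3. The rows of Gbp8 (10531972), Gbp9 (10531980), Gbp4 (10531987) and Gbp11 (10532019) of chromosome 5 have other numbers. Which of the 2 genes the row measures was not tested.

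Promoters were read from RefSeq (GRCm38.p6, 250 bases before to 50 bases after the start of a transcript), and 6 of the 10 genes, Gbp2, Gbp3, Gbp7, Igtp, Irgm1 and Irgm2, had 1 or more entries, 7 promoters in all. The last 110 bases before the start are shown, since these hold matches to motifs known from interferon-induced genes. Capitals mark matches on either strand to a GAS motif (TTCNNNGAA) or an ISRE core (GAAA, any 2 bases and GAAA again, which reads as TTTC blocks on the opposite strand). The windows are Gbp7 chr3:142530226-142530335, Gbp3 chr3:142559934-142560043, Gbp2 chr3:142620553-142620662, Igtp chr11:58199446-58199555 and Irgm2 chr11:58214867-58214976, all on the plus strand, and Irgm1 chr11:48871421-48871530 on the minus strand.
Gbp7: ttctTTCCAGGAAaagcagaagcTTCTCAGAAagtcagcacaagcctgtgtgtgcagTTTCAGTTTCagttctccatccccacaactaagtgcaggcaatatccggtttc
Gbp3: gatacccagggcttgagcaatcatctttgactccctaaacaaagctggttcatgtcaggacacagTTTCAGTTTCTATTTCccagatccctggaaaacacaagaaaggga
Gbp2: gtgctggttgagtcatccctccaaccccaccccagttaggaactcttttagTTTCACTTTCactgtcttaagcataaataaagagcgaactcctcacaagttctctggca
Irgm1: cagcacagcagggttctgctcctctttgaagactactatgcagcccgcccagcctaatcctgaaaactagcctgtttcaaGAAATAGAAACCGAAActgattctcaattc
Igtp: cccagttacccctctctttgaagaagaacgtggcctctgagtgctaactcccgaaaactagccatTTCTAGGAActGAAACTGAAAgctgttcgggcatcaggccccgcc
Irgm2: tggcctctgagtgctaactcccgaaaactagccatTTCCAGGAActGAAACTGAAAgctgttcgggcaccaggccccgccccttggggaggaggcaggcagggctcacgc
All 6 genes had an ISRE core in 6 of the 7 promoters, against 3.44% of 32851 mouse promoters of the same length. A GAS motif was found for 3 genes, Gbp7, Igtp and Irgm2, against 8.3% of the promoters, and both motifs together in 0.454% of them. In Gbp7, 2 GAS motifs lie upstream of the ISRE core, whereas in Igtp and Irgm2 a single GAS motif is followed after 2 bases by the ISRE core. The capitals of Gbp3 and Irgm1 each cover 2 ISRE cores that overlap. A match gives the letters only and was not tested as a binding site.

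Across the 6 genes, intensities were lower in both ventilated groups than in controls, and few of these differences passed the test. In H2S-ventilated lungs the log2 fold changes against control ran from -1.92 to -0.65 with a median of -1.28, and 2 of the 6 genes, Gbp4 and Gbp9, fell at an adjusted p under 0.05 (limma on log2 values, Benjamini-Hochberg over all rows). Among all rows, 3.93% were lower by the same rule. In air-ventilated lungs the log2 fold changes ran from -1.60 to -0.51 with a median of -0.91, and 1 of the 6 genes, Gbp9, fell, against 1.89% of all rows. The medians over all rows were 0.00 with H2S and 0.01 with air. None of the 6 genes was higher in either comparison, and at an unadjusted p under 0.05 all 6 were lower with H2S, against 10.6% of all rows, and 3 with air, against 7.51%. Both comparisons use the same 5 control mice.

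The thresholds of the study were a fold of 1.7 or more, p up to 0.005 and adjusted p up to 0.1. Applied to the limma values, they called Gbp4 and Gbp9 lower with H2S, against 0.79% of all rows. With air they called Gbp9 lower, against 0.617% of all rows. The study had applied them to the values of CyberT, its regularised test. With CyberT run here, they called 5 of the 6 genes lower with H2S (300 of all rows) and 5 with air (238 of all rows). The H2S-ventilated and control groups did not overlap for 1 of the 6 genes, Gbp9, against 4.09% of all rows, and the air-ventilated and control groups overlapped for each of the 6, while 2.9% of all rows were lower without overlap. Between H2S and air ventilation none of the 6 genes passed, at an adjusted or an unadjusted p under 0.05, and of all rows 0.00705% were lower by the adjusted and 2.71% by the unadjusted p.

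**Figure D1:**
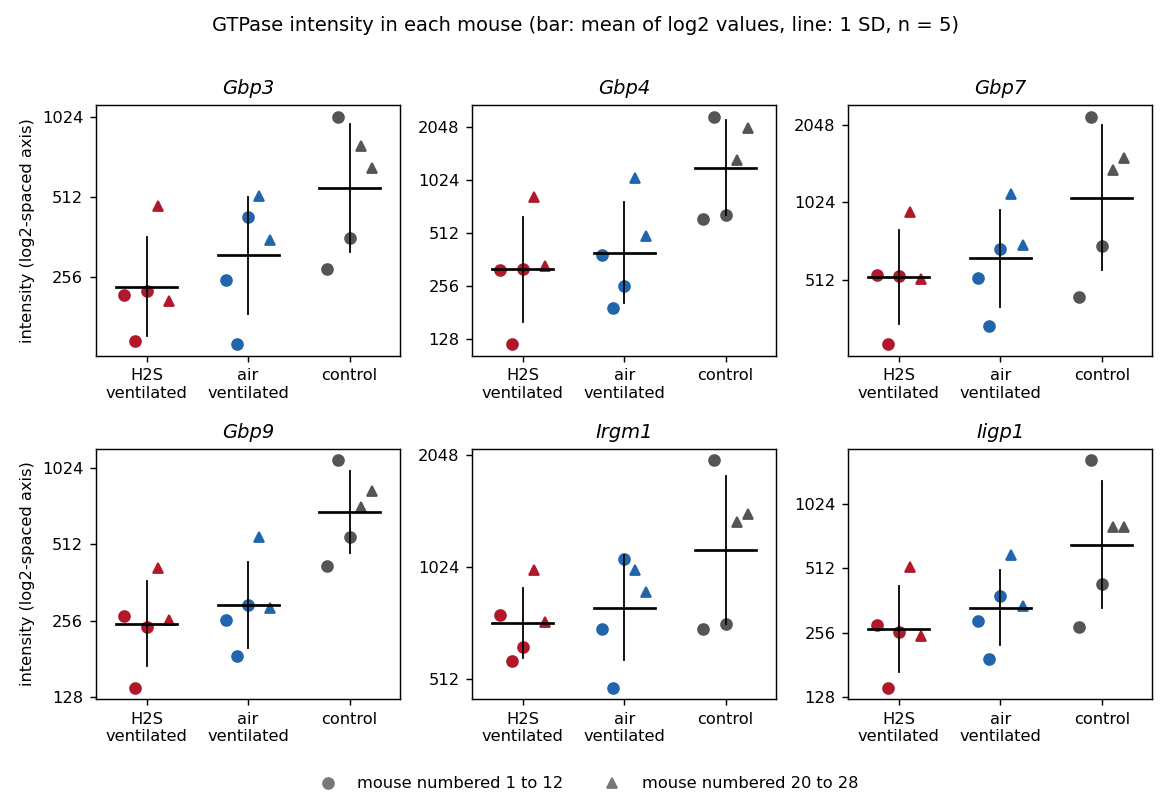
Intensity of the 6 GTPases with a row of their own (log2-spaced axis) in each H2S-ventilated, air-ventilated and control mouse, with the mean of the log2 values (bar) and 1 SD (line) of n = 5 and with symbols for the running number of the mouse. Gbp9 is the gene whose H2S-ventilated mice, up to 413, all lie below the lowest control mouse at 420.0.

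Gbp9, a guanylate-binding protein of the chromosome 5 family, passed the test in both ventilated groups. Its row (10531980) read 266, 139.5, 242, 413 and 258 in H2S-ventilated mice 1_4, 4_8, 9_12, 15_20 and 27_28. It read 259, 185, 296, 545 and 287 in air-ventilated mice 6_2, 11_6, 12_10, 34_22 and 35_26, and 420.0, 1099, 546, 721 and 829.9 in control mice 5_1, 6_5, 7_9, 12_21 and 13_25. All H2S-ventilated mice were thus below all controls, and of the air-ventilated mice 34_22 reached into the control range. Group means were 264 ± 97.7 with H2S, 314 ± 136 with air and 723 ± 263 in controls (SD, n = 5 each). The fold change was 2.75 lower with H2S than in control (log2 -1.46, SE 0.31, adjusted p = 0.00756) and 2.32 lower with air than in control (log2 -1.22, SE 0.31, adjusted p = 0.0387).

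The call of Gbp9 with H2S held without any single mouse. With air it was lost without H2S mouse 1_4 or 27_28, air mouse 6_2, 11_6, 12_10 or 35_26, or control mouse 6_5, 7_9, 12_21 or 13_25, at adjusted p from 0.0527 to 0.107. Within the mice numbered up to 12, Gbp9 differed by -1.60 with H2S (adjusted p = 0.0329) and by -1.38 with air (adjusted p = 0.0896) in a limma fit of these mice, and within the mice numbered from 20 by -1.25 (adjusted p = 0.366) and -0.97 (adjusted p = 0.783).

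Gbp4, a neighbour of Gbp9 on chromosome 5, had the largest fold change of the 6 genes and a wide spread. Its row (10531987) read 315, 120.2, 322, 827 and 332 in the H2S-ventilated mice, in the same order of mice. It read 386, 194, 256, 1057 and 492 in the air-ventilated mice and 615, 2348, 652, 1339 and 2025 in the control mice. In each ventilated group 1 mouse, 15_20 with H2S and 34_22 with air, lay above the lowest control. Means were 383 ± 263 with H2S, 477 ± 344 with air and 1396 ± 786 in controls (SD, n = 5 each).

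Gbp4 fell to 26.5% of the control level with H2S, a fold of 3.77 (log2 -1.92, SE 0.52, adjusted p = 0.0327). With air its log2 fold change was -1.60 (SE 0.52, adjusted p = 0.122), which did not pass in the main limma fit. The air difference passed with CyberT, the regularised test of the study (adjusted p = 0.000217), and with array weights (adjusted p = 0.0351). It also passed with the number ranges as a block (adjusted p = 0.0383) or without air mouse 34_22 (adjusted p = 0.0395). The H2S call was lost without H2S mouse 1_4, 4_8, 9_12 or 27_28, or control mouse 6_5, 12_21 or 13_25, at adjusted p from 0.0612 to 0.0862. The log2 difference between H2S and control was -2.09 within the mice numbered up to 12 (adjusted p = 0.0604) and -1.65 within those numbered from 20 (adjusted p = 0.386).

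Gbp3 and Gbp7, neighbours on chromosome 3, did not pass in either comparison in the main limma fit without a block. Gbp3 (row 10496580) read 218, 147, 226, 473 and 207 in the H2S-ventilated mice, 249.6, 142, 431, 517 and 351 in the air-ventilated mice and 273, 1027, 358, 796 and 656 in the control mice. Control mouse 5_1 lay within the range of both ventilated groups. The log2 fold changes of Gbp3 were -1.24 with H2S (SE 0.40, adjusted p = 0.0707) and -0.85 with air (SE 0.40, adjusted p = 0.359). With H2S Gbp3 passed with CyberT (adjusted p = 0.00034), a variance trend (adjusted p = 0.0482), array weights (adjusted p = 0.0339) and without the dimmest rows (adjusted p = 0.0468). It also passed with the number ranges as a block (adjusted p = 0.0347), and without H2S mouse 15_20, air mouse 11_6 or control mouse 5_1, at adjusted p from 0.026 to 0.0461. With air Gbp3 passed with CyberT (adjusted p = 0.0321).

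Gbp7, which in mice takes part in the control of intracellular bacteria, showed the same arrangement at higher readings. Its row (10496569) read 533, 288, 529, 943 and 518 in the H2S-ventilated mice, 519, 340.2, 677, 1106 and 703 in the air-ventilated mice and 442, 2207, 695, 1363 and 1521 in the control mice. Control mouse 5_1 was below 4 of the 5 H2S-ventilated mice and 4 of the 5 air-ventilated mice. Its log2 fold changes were -1.03 with H2S (SE 0.41, adjusted p = 0.15) and -0.78 with air (SE 0.41, adjusted p = 0.432). With H2S it passed with CyberT (adjusted p = 0.00585) and, by limma, without control mouse 5_1 (adjusted p = 0.0412).

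The immunity-related GTPases were represented by Irgm1, a regulator that protects host membranes, and Iigp1 (Irga6), an effector that is loaded onto the vacuole of Toxoplasma. Irgm1 (row 10385500) read 761, 570.2, 621, 1004 and 729 in the H2S-ventilated mice, 696, 484, 1074, 1005 and 878 in the air-ventilated mice and 695, 1986, 717, 1351 and 1418 in the control mice. It had the smallest fold changes of the 6 genes, with log2 values of -0.65 with H2S (SE 0.28, adjusted p = 0.19) and -0.51 with air (SE 0.28, adjusted p = 0.467). With H2S it passed with CyberT (adjusted p = 0.02). In air-ventilated lungs 4 of 5 mice were above the lowest control.

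Iigp1 (row 10455961) read 278, 141, 258, 519 and 248 in the H2S-ventilated mice, 289, 192, 378, 589 and 342 in the air-ventilated mice and 272, 1635, 432, 798 and 799 in the control mice. The control values alone spanned a fold of 6.01, the widest control range of the 6 genes. The log2 fold changes of Iigp1 were -1.31 with H2S (SE 0.42, adjusted p = 0.0719) and -0.97 with air (SE 0.42, adjusted p = 0.298). With H2S Iigp1 passed with CyberT (adjusted p = 0.00101), a variance trend (adjusted p = 0.049), array weights (adjusted p = 0.0308) and without the dimmest rows (adjusted p = 0.0477). It also passed with the number ranges as a block (adjusted p = 0.0451), without H2S mouse 15_20 (adjusted p = 0.0323) and without control mouse 5_1 (adjusted p = 0.0216). With air Iigp1 passed with CyberT (adjusted p = 0.0185).

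The 3 shared rows cover the members without a row of their own. The row of Gbp2 and Gbp2b read 516 to 1022 in H2S-ventilated mice, 424 to 1349 in air-ventilated mice and 991 to 2352 in control mice, with a median of 648 with H2S, 727 with air and 1668 in controls. It fell with H2S (log2 -1.25, SE 0.29, adjusted p = 0.0143) and was at a log2 fold change of -1.04 with air (SE 0.29, adjusted p = 0.065). By limma the air difference meets the thresholds of the study but not an adjusted p of 0.05. It passed 0.05 in 9 alternatives and did not in 20. It passed with CyberT (adjusted p = 0.000269), a variance trend (0.0379), array weights (0.0255), an offset of 16 (0.0428) and without the dimmest rows (0.0402). It also passed with the number ranges (0.0197) or runs of 4 (0.042) as a block, and without air mouse 34_22 (0.0163) or control mouse 7_9 (0.0485). Gbp2b also had its own row, which read 52.6 to 97.8 over all mice, with log2 fold changes of -0.24 with H2S and -0.19 with air that did not pass.

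The row that names Gbp4, Gbp6, Gbp8, Gbp9, Gbp10 and Gbp11 read 193 to 822 with H2S, 179 to 986 with air and 548 to 2445 in controls. It fell with H2S (log2 -1.62, SE 0.47, adjusted p = 0.0458) and did not pass with air in the main limma fit (log2 -1.38, SE 0.47, adjusted p = 0.146). With air it passed with CyberT (adjusted p = 0.00118) and with array weights (adjusted p = 0.0497). The H2S call was lost without H2S mouse 1_4, 4_8, 9_12 or 27_28, air mouse 6_2, 12_10 or 35_26, or control mouse 6_5, 12_21 or 13_25. The row of Irgm2 and Igtp, both regulators, read 409.7 to 816 with H2S, 377 to 942 with air and 502 to 1512 in controls, with log2 fold changes of -0.80 with H2S (adjusted p = 0.145) and -0.68 with air (adjusted p = 0.346). With H2S this row passed with CyberT (adjusted p = 0.00932).

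**Figure D2:**
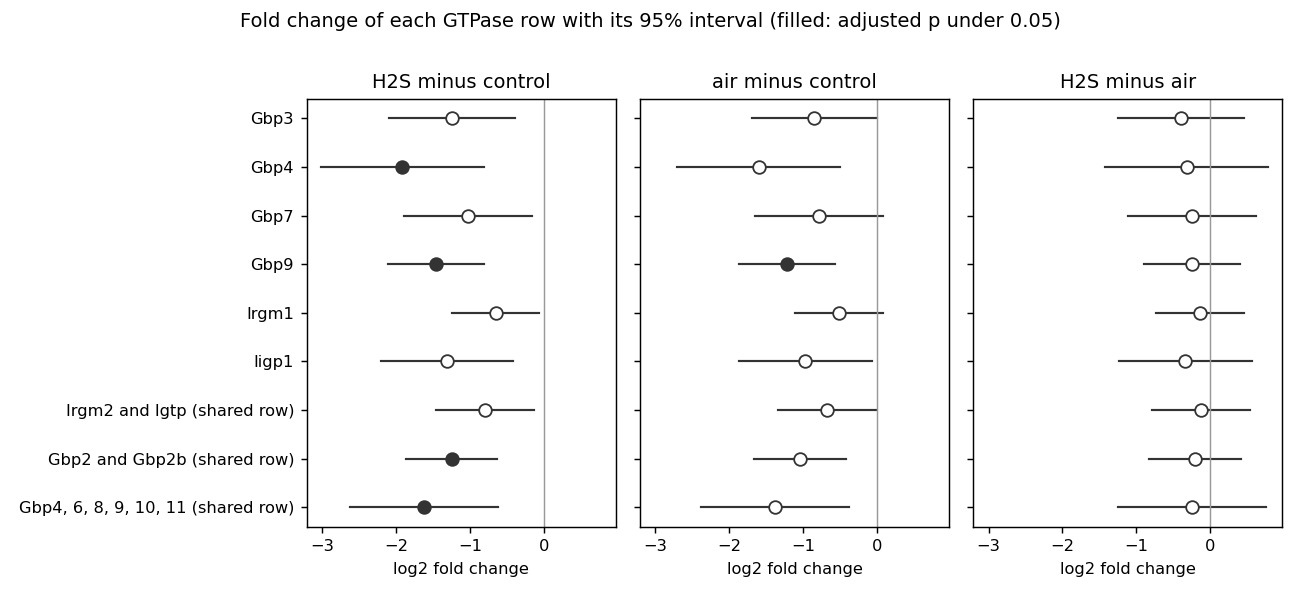
Log2 fold change (x axis) with its 95% interval for the 6 GTPases and the 3 shared rows in the comparisons H2S minus control, air minus control and H2S minus air, with filled points at an adjusted p under 0.05. The 9 points lie below 0 in all 3 comparisons, and the intervals of H2S minus air all include 0.

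Adding H2S to ventilation gave no detectable difference for any of these rows. The log2 fold changes of H2S-ventilated against air-ventilated mice ran from -0.39 to -0.14 over the 6 genes with a median of -0.28, each at an adjusted p of 0.997. This median was -0.04 without H2S mouse 4_8, -0.05 without air mouse 34_22, -0.50 without air mouse 11_6 and -0.52 without H2S mouse 15_20. The intervals leave room for differences in both directions. For Gbp9 the 95% interval ran from -0.90 to 0.41 around -0.24, for Gbp4 from -1.42 to 0.79 around -0.32, and for Irgm1 from -0.73 to 0.46 around -0.14. The adjusted p does not show that both gases gave equal levels.

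The 6 genes were high and low in the same mice. Control mouse 6_5 was the highest control and control mouse 5_1 the lowest control for each of the 6 genes. Among H2S-ventilated mice 15_20 was highest and 4_8 lowest for each of the 6, and among air-ventilated mice 34_22 was highest for 5 genes and 12_10 for 1, with 11_6 lowest for 6. After subtraction of the group means, pairs of the 6 genes correlated at 0.784 (Gbp4 and Irgm1) to 0.987 (Gbp7 and Iigp1) over the 15 mice, as a description of values that share an array.

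Summed over the 6 genes, intensities were 1406 to 4179 in H2S-ventilated mice, 1538 to 4819 in air-ventilated mice and 2716 to 10302 in control mice. Mice 4_8 and 11_6 were below every control in 6 of the 6 genes, and mouse 34_22 in 0 of the 6. Without control mice 5_1 and 6_5, an alternative chosen after seeing the data, the median log2 fold change was -1.29 with H2S and -0.92 with air, and 1 of the 6 genes passed with H2S and 0 with air. The number of all rows that were lower at an adjusted p under 0.05 was then 542 in place of 1116 with H2S and 58 in place of 535 with air.

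The running number moved with the level of the genes. In each group and for each gene, 18 of 18 combinations, the mean log2 value was higher in the mice numbered from 20 than in those numbered up to 12, by 0.29 to 1.43. These combinations are not independent, since the genes varied together, and each rests on 2 mice with a high number. Without mouse 15_20 the gap in H2S-ventilated mice was 0.10 to 0.53 over the 6 genes, and the highest control, 6_5, has a low number. Across all rows, the deviations from the group means of mice in different groups correlated at 0.159 on average within a number range and at -0.172 between the ranges. Each number range holds mice of all 3 groups. The median log2 fold change of the 6 genes was -1.34 with H2S and -0.98 with air within the lower range, and -1.18 with H2S and -0.80 with air within the upper range. No more was tested on the running number.

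**Figure D3:**
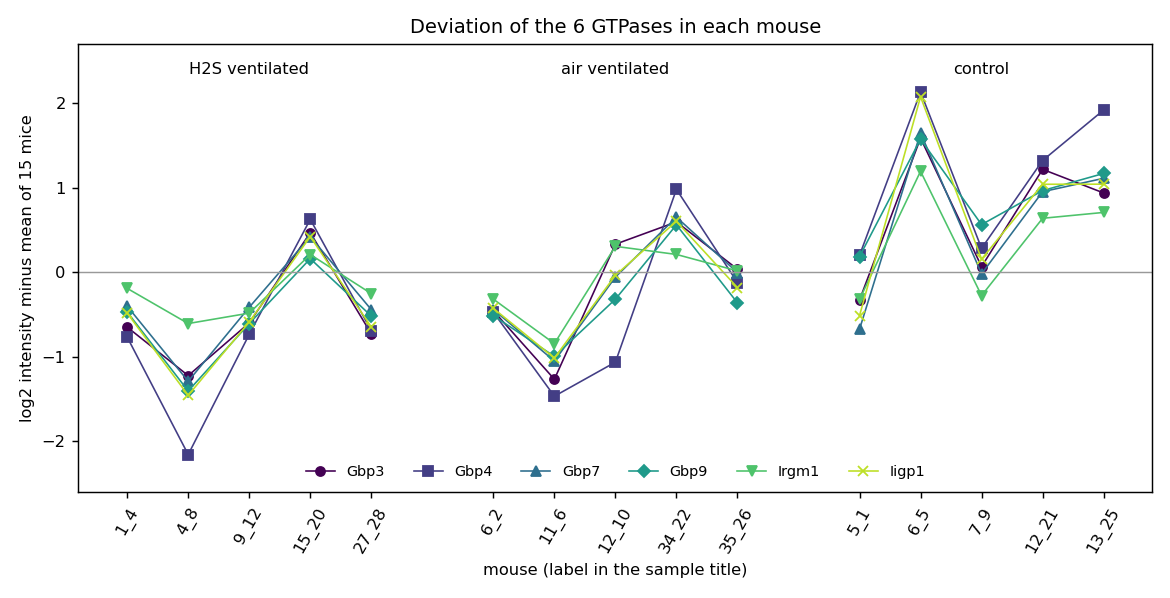
Log2 intensity of the 6 GTPases in each mouse minus the mean of that gene over the 15 mice (y axis), with mice of the H2S-ventilated, air-ventilated and control groups along the x axis and 1 line per gene. The lines move together within each group, with control mouse 6_5 at the top and control mouse 5_1 at the bottom of its group.

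The genes with the most similar profile were looked up among 19928 genes with a row of their own, by the correlation with the mean of the 6 genes over 15 mice after subtraction of the group means. The 10 nearest were 9330175E14Rik, Gbp11, Gbp8, Gm4951, Gm12185, Ifi213, Trim34a, Slfn10-ps, Gm12250 and H2-T24, with a Pearson r of 0.966 to 0.927. Gbp11 and Gbp8 belong to the guanylate-binding protein family, Gm12250 is Irgb10, an immunity-related GTPase that attacks bacterial membranes, and H2-T24 is a class I histocompatibility gene. Their r without the mice 5_1 and 6_5, the farthest from the median, was 0.899 to 0.956. A correlation over 0.9 was seen for 24 genes and over 0.8 for 119.

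Of the other guanylate-binding and immunity-related GTPase genes, 9 had a row of their own. With H2S 3 of the 9 fell and none rose, namely Gbp8 (log2 -0.97, adjusted p = 0.0222), Gbp5 (log2 -1.16, adjusted p = 0.0305), which promotes inflammasome assembly, and Gbp11 (log2 -1.19, adjusted p = 0.032). With air 0 of the 9 passed, and 3 were lower at an unadjusted p under 0.05, against 7.51% of all rows. At the adjusted p, 3.93% of all rows were lower with H2S and 1.89% with air. Gbp5 read 101.3, 92.6, 99.4, 166 and 83.5 in the H2S-ventilated mice, 104, 84.4, 109, 222 and 140.4 in the air-ventilated mice and 130.3, 372, 151, 269 and 370.0 in the control mice. The median log2 fold changes of the list were -0.86 with H2S and -0.73 with air. The distant relatives Irgq and Irgc1 were at -0.04 and -0.05 with H2S.

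The upstream part of the pathway was measured through 19 genes, of which 15 did not pass with H2S and 18 did not pass with air. Ifng, the cytokine itself, read 80.1 to 90.6 in H2S-ventilated mice, 77.8 to 93.9 in air-ventilated mice and 76.9 to 109 in control mice, with log2 fold changes of -0.13 with H2S (adjusted p = 0.508) and -0.11 with air (adjusted p = 0.714) that did not pass. These readings are low, below the array medians of 179 to 187. Among controls Ifng was highest in mouse 6_5 and lowest in mouse 5_1, as the GTPases were. Among H2S-ventilated mice it was highest in 4_8, where the GTPases were lowest. Among air-ventilated mice it was highest in 6_2 and lowest in 12_10, unlike the GTPases. The receptor chains Ifngr1 and Ifngr2 were at 0.12 and -0.21 with H2S and at 0.14 and -0.13 with air, and the kinases Jak1 and Jak2 at -0.11 and 0.02 with H2S and at -0.08 and 0.03 with air. None of these 4 passed.

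Irf8, a transcription factor of myeloid and B cells that acts with Irf1 on interferon-gamma targets, fell in both ventilated groups. It read 701, 779, 533, 828 and 711 in the H2S-ventilated mice, 656, 619, 532, 914 and 676 in the air-ventilated mice and 1003, 1001, 964, 1019 and 1169 in the control mice. All ventilated mice were below all controls. The log2 fold changes were -0.55 with H2S (adjusted p = 0.0178) and -0.62 with air (adjusted p = 0.0154). Irf1 and Irf9 were at -0.21 and -0.33 with H2S and did not pass.

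Among the inhibitors of the pathway, Socs3, which blocks cytokine receptor signalling, rose with H2S. It read 759, 1122, 682, 679 and 697 in the H2S-ventilated mice, 417, 768, 371, 447 and 549 in the air-ventilated mice and 362, 375, 276, 381 and 383 in the control mice. All H2S-ventilated mice were above all controls, whereas the air-ventilated mice overlapped with both. The log2 fold change was 1.13 against control (adjusted p = 0.00151) and 0.65 against air (adjusted p = 0.370), and with air it was 0.48 against control (adjusted p = 0.201). The phosphatase Ptpn2, which dampens cytokine signalling, rose with H2S (log2 0.46, adjusted p = 0.0101) and was at 0.08 with air, and Socs1 did not pass at -0.01 with H2S and -0.06 with air.

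Of the genes that drive interferon-gamma production, Il12a, a subunit of interleukin 12, fell with H2S (log2 -0.31, adjusted p = 0.0206) and was at -0.20 with air. Il18r1, a receptor chain for interleukin 18, was at -0.54 with H2S (adjusted p = 0.0511) and -0.50 with air. Il12b, Il12rb1, Il12rb2, Il18, Tbx21 and Stat4 did not pass, with log2 fold changes of -0.24 to 0.08 with H2S.

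Other genes known as targets of interferon-gamma also included some that fell. Of 26 genes, 4 fell and none rose with H2S, and 3 fell and none rose with air, with a median of -0.34 with H2S and -0.28 with air. Among all rows, 3.93% fell with H2S and 1.89% with air. The immunoproteasome subunit Psmb10 fell with H2S (log2 -0.60, adjusted p = 0.0149) and with air (log2 -0.55, adjusted p = 0.0408), and Ciita, the master regulator of class II histocompatibility genes, fell with H2S (log2 -0.55, adjusted p = 0.0408) and with air (log2 -0.72, adjusted p = 0.0153). Psmb9 (log2 -0.70) and Tap2 (log2 -0.49), a peptide transporter subunit, fell with H2S.

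Genes induced by type I interferons were lower without passing. Of 24 genes 0 passed in either comparison by limma at the adjusted p, and 15 with H2S and 7 with air were lower at an unadjusted p under 0.05, by which 10.6% of all rows were lower with H2S and 7.51% with air. The medians were -0.72 with H2S and -0.65 with air. The sum over the 24 genes was 9822 to 20002 with H2S, 9069.8 to 20038 with air and 11544 to 44074 in controls, with the highest value in control mouse 6_5 and the lowest control value in mouse 5_1, as for the GTPases. Cmpk2 was at a log2 fold change of -1.15 with H2S (adjusted p = 0.0706) and Ddx58, the RNA sensor RIG-I, at -0.63 (adjusted p = 0.0614).

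The partners with which the GTPases act on vacuoles and inflammasomes moved in both directions. Of 19 genes, 3 rose and 1 fell with each kind of ventilation. Among all 28361 rows, 1112 rose and 1116 fell with H2S, and 442 rose and 535 fell with air. The ubiquitin adaptor Sqstm1 (log2 0.54 with H2S and 0.36 with air), Gabarapl1 (log2 0.56 with H2S and 0.49 with air) and Map1lc3b (log2 0.31 with H2S and 0.26 with air), both of the ATG8 family that guides the GTPases, rose in both. Pycard, the adaptor of inflammasomes, fell with H2S (log2 -0.49, adjusted p = 0.0178), and Ube2l6, which conjugates ISG15, fell with air (log2 -0.68, adjusted p = 0.0326).

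**Figure D4:**
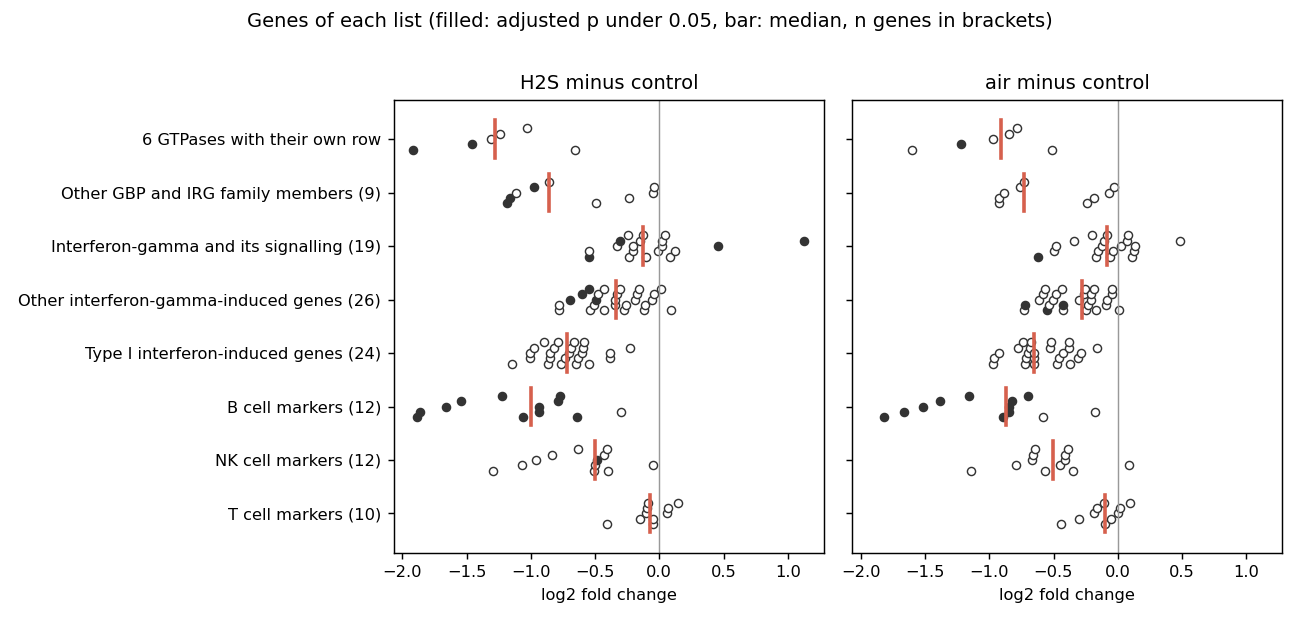
Log2 fold changes (x axis) of the single genes of each list in H2S minus control and air minus control, with filled points at an adjusted p under 0.05 and a bar at the median of the list. The medians of the 6 GTPases are -1.28 with H2S and -0.91 with air, those of the type I interferon-induced genes -0.72 and -0.65, and those of the T cell markers -0.07 and -0.10.

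Some markers of cell types moved beside the GTPases. Of 12 B cell markers, 11 fell with H2S and 10 fell with air, with sums of 2053 to 3803 with H2S, 2186 to 4774 with air and 4863 to 8198 in controls. Among all rows, 3.93% fell with H2S and 1.89% with air. The lowest B cell marker, Cr2, had a median of 54.0 with H2S and 95.2 in controls. The control mouse with the highest GTPases, 6_5, had a B cell sum of 6922, within the control range. Among controls this mouse had the highest sums of monocyte (11843) and neutrophil (17333) markers and the lowest sum of T cell markers (1785). Its sums of the other marker lists lay between the lowest and the highest control. Of 12 natural killer cell markers, 1 fell with H2S and 0 with air, with sums of 1195 to 3278 with H2S, 1228 to 4365 with air and 2990.5 to 5020.1 in controls, and of 10 T cell markers none passed, with sums of 1759 to 2618 with H2S, 1398 to 3632 with air and 1785 to 3061 in controls.

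Of 10 monocyte markers, 2 fell and 1 rose with H2S and 1 fell with air, with sums of 7876 to 9711 with H2S, 7081 to 7981 with air and 8020 to 11843 in controls. Of 10 dendritic cell markers, 2 fell with H2S and 3 with air, with sums of 2287 to 2753 with H2S, 2128 to 2684 with air and 2781 to 3395 in controls. Of 10 endothelial markers, 3 fell and 1 rose with H2S and 2 fell with air, with sums of 31692 to 33842 with H2S, 31221 to 33476 with air and 34044.5 to 37596 in controls. For the dendritic cell and endothelial lists, as for the B cell list, the sums of all ventilated mice lay below those of all controls. Of 10 alveolar macrophage markers, 4 rose with H2S, and 1 rose and 1 fell with air. Neutrophil markers rose for 5 of 12 genes with H2S and 4 of 12 with air, with sums of 17257 to 29054 with H2S, 17244 to 24901 with air and 11576 to 17333 in controls. Among all 28361 rows, 1112 rose and 1116 fell with H2S, and 442 rose and 535 fell with air. The tissue was lung by its alveolar type II markers, whose sums were 64318 to 67374 with H2S, 63905 to 67110 with air and 62824 to 66169 in controls. The part of these cell types in the levels of the GTPases was not tested.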

How the data were processed

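Lung RNA of 15 mice in 3 groups of 5 was hybridised to Affymetrix whole-transcript arrays. The deposited values are linear intensities, for which the authors read the arrays with Command Console 3.0, subtracted a background by GC content, applied quantile normalisation and summarised probes by RMA in Genedata Expressionist Refiner 6.1 with Affymetrix annotation NA32. Of the 28361 rows, 21780 have 1 gene symbol in the platform table, 1617 several and 4964 none, and 0 columns were left unused. The design had taken the values as log2 already, so they were first transformed. R 4.3.3 with limma 3.58.1 gave the fit, over all 15 arrays and without a covariate, with Benjamini-Hochberg adjustment over all rows. Plots were drawn with Python 3.11.15 and matplotlib 3.10.9. CyberT, the regularised test of the study, was run (confidence 15, window 101), next to variance trend, array weights, other normalisations, a filter, an offset of 16, blocks, number ranges and leaving out each mouse. The limma and CyberT steps were tested on simulated data.

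Of each list of genes, the named ones are those with the 4 smallest adjusted p in H2S minus control or passing against the direction of the rest, all of the interferon-gamma signalling list and the 10 genes of most similar profile. Gbp2b, Irgq, Irgc1, Cr2 and Ube2l6 were named after their values were seen. The members and lists were chosen with earlier results of these data known. The labels do not say whether the mice share litters or days. The p-values of the main fit take the mice as independent and measure the spread between these mice. Whether they are independent was not tested. Mice were also grouped by running number into runs of 4. Mouse 15_20 was placed with mice 12_21 and 34_22, so that this group is not a strict run of 4. Deviations of mice of different treatment groups correlated at 0.211 on average within a run, from -0.179 to 0.458, and at -0.0525 between runs. The labels do not say that the numbers pair the mice, so pairing was not assumed.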

Additional observations from a re-analysis of the deposited data

How the results depend on the processing

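With 5 arrays per group and a wide spread in controls, the counts of GTPases that passed depended on the test, while in the comparisons with control the direction of the 6 GTPases and the 3 shared rows did not. Of 783 values of single rows under 29 alternatives, 700 kept their direction and side of the threshold, 41 no longer passed, 37 newly passed and 5, all in H2S minus air, changed sign. The count over all rows moved too, and with 2 mice per group the fit of the mice numbered from 20 had 0 of 28361 rows lower at an adjusted p under 0.05 in any comparison, so that its 0 GTPases say nothing about them. The cause of these shifts was not tested.

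For H2S minus control, 2 of the 6 GTPases were lower at an adjusted p under 0.05, and 1116 rows in all (the number of all rows lower by the same rule stands in brackets below). The number was 6 with CyberT (1362 rows), 4 with a variance trend (1272), with array weights (1362), without the dimmest rows (1348) and with the number ranges as a block (1411), 1 within the mice numbered up to 12 (545), 0 within those numbered from 20, and 1 without control mice 5_1 and 6_5 (542). By the thresholds of the study 2 were called (224 rows), and the number was 5 with CyberT (300 rows), 4 with a variance trend (236), with array weights (223), with an offset of 16 (200 rows) and with the number ranges as a block (241), and 0 within the mice numbered from 20 (2 rows). Leaving out each mouse gave 1 to 5 by either rule, with 5 without control mouse 5_1, 4 without H2S mouse 15_20, and, by the thresholds of the study, 1 without H2S mouse 4_8 or control mouse 6_5 or 13_25.

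For air minus control, 1 passed an adjusted p of 0.05 (535 rows). The number was 4 with CyberT (938 rows), 2 with array weights (876) and with the number ranges as a block (630 rows), and 0 with only the 2 groups compared in the fit (429), within the mice numbered up to 12 (364), within those numbered from 20, and without control mice 5_1 and 6_5 (58). By the thresholds of the study 1 was called (175 rows), and the number was 5 with CyberT (238), 2 with a variance trend (178), with array weights (201), with an offset of 16 (153), with the number ranges as a block (181) and with runs of 4 as a replicate block (188), and 0 within the mice numbered from 20 (0 rows) and without control mice 5_1 and 6_5 (124). Leaving out each mouse gave 0 to 2 by either rule, with 2 without air mouse 34_22 by both, and by the thresholds of the study also 2 without H2S mouse 4_8 or 15_20 or control mouse 5_1 and 0 without air mouse 11_6 or control mouse 6_5. With runs of 4 as a replicate block, 3 GTPases passed an adjusted p of 0.05 with H2S, Gbp3 among them at 0.0441, and 1 with air, and pairing was not assumed.

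For H2S minus air the count was 0 under every alternative that was run. Leaving out each mouse gave log2 fold changes of -0.66 to 0.0371 for Gbp4, -0.28 to 0.0486 for the row of Irgm2;Igtp, -0.41 to 0.0035 for that of Gbp2;Gbp2b and -0.56 to 0.0545 for that of 6 Gbp genes (Gbp11;Gbp10;Gbp9;Gbp6;Gbp8;Gbp4), with positive values without air mouse 34_22 and, for Gbp4, also without H2S mouse 4_8.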
